A study of Mus musculus with 12 samples.

Results

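The cells described here are splenic γδ T cells of the mouse in which transcripts of both Ccr6, the receptor for the chemokine CCL20, and Scart2, a scavenger receptor family gene of γδ T cells, were detected, while those of Trgv6 and Trdv4, V genes of the Vγ6Vδ4 receptor, were not. They are called Ccr6 Scart2 cells below. A cell entered if it held at least 500 unique molecular identifiers (UMIs, counted mRNA molecules), at least 1 UMI of Ccr6 and 1 of Scart2, and no UMI of Trgv6 or Trdv4. This selection, made on measured values, gave 449 cells of the 38495 cells in the 4 splenic libraries, out of 97404 cells in the 12 libraries of the study.

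γδ T cells are T lymphocytes whose antigen receptor is built from a γ and a δ chain. A group of them, γδT17 cells, leave the thymus already programmed to make IL-17: they depend on the transcription factor c-MAF (Maf), respond to IL-23, IL-1β and IL-7, and lack CD27, which marks the IFN-γ producing counterpart. Vγ6Vδ4 cells, which arise in fetal life and settle in barrier tissues, and Vγ4 cells are the γδT17 populations usually told apart in mice.

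The study compared γδ T cells of adult WT mice and of mice with a germline knockout of Gfi1, a zinc finger transcriptional repressor, all kept on a C57BL6/J background. Splenic cells were depleted of B, myeloid and NK cells with a magnet and sorted as CD3+ CD4neg γδ T cells, and WT and KO cells, each marked with its own oligonucleotide-tagged antibody (hashtag), were loaded together for droplet-based 3′ sequencing. There were 2 such pools, each split by the authors into a WT and a KO matrix, here WT 1 and KO 1 from pool 1 and WT 2 and KO 2 from pool 2. The labels do not say whether the pools came from separate animals, so p-values measure only the spread between these libraries, which may be technical.

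The splenic libraries held 7818 to 11679 cells and 42111651 to 69504211 UMIs. Gfi1 itself did not follow the genotype: over all splenic cells it stood at 11.8 CPM (UMI counts scaled to a common library total) in WT 1, 17.96 in WT 2, 18.11 in KO 1 and 18.14 in KO 2, and in Ccr6 Scart2 cells at 5, 15, 2 and 3 UMIs. The 3′ tags may lie outside the deleted part and then check nothing, and every direction drawn from genotype below refers to the libraries labelled KO. The hashtag of its own library made up a median of 96.9% and 96.3% of the hashtag UMIs of a Ccr6 Scart2 cell in WT 1 and WT 2, and 89.6% and 84.1% in KO 1 and KO 2. In the Ccr6 Scart2 cells of KO 2 the lowest such share was 67.3%, and in none of the 449 cells did the other hashtag dominate. WT and KO matrices of a pool shared no cell barcode, whereas pairs of matrices from different pools shared 15 to 26.

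WT 1 contained 214 Ccr6 Scart2 cells and WT 2 contained 197, but KO 1 contained 29 and KO 2 only 9. Their median depth was 4246 and 4323 UMIs in the WT libraries and 5176 and 5071 UMIs in the KO libraries. They were shallower than the Trgv6 Trdv4 cells of the WT libraries, at 6788 and 6732 UMIs, which were defined by at least 1 UMI of each V gene, and than the other WT splenic cells, at 4875 and 4971 UMIs. Because of the cell numbers, tests of gene expression were made within the WT libraries, and the KO cells are described by their values.

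The selecting genes and the markers given with the population are a description of the choice and were not tested. Ccr6 was at 395 and 388 CPM and Scart2 at 697 and 683 CPM in the Ccr6 Scart2 cells of WT 1 and WT 2, with CPM taken over the summed UMIs of the class. Pxdc1 was at 121 and 102 CPM against at most 4.24 in the other splenic cells. Ramp3, a partner protein that shapes the ligand choice of calcitonin family receptors, was at 72.9 and 79.97 CPM against 4.24 and 4.13. Jag1, a ligand of Notch receptors, was at 61.4 and 60.2 CPM against 2.96 and 2.44. In Trgv6 Trdv4 cells the 3 genes lay between these levels, at 19.6 and 19.5 CPM for Pxdc1, 15.1 and 17.2 for Ramp3 and 29.7 and 30.8 for Jag1. At least 1 of the 3 transcripts was seen in 65.0% and 60.4% of Ccr6 Scart2 cells, 34.2% and 36.2% of Trgv6 Trdv4 cells and 3.99% and 3.59% of other cells. With each cell thinned to 3000 UMIs, which left out 30 and 21 shallower Ccr6 Scart2 cells, these shares were 56.5% and 45.5%, 20.7% and 21.8%, and 2.94% and 2.45%.

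The γδT17 name was checked against 4 genes that the selection did not use. They were chosen, like the gene lists, with earlier results of these data known, so the check is not independent. At least 3 of Maf, Sox13, Blk and Il23r were detected together in 83.2% and 87.8% of the Ccr6 Scart2 cells of WT 1 and WT 2, in 89.8% and 91.0% of the Trgv6 Trdv4 cells and in 4.61% and 3.87% of the other cells. After thinning to 3000 UMIs, the shares were 68.5% and 65.9%, 69.4% and 62.9%, and 3.56% and 3.07%. In WT the 4 genes thus bore out the name. In the Ccr6 Scart2 cells of KO 1 and KO 2 the share was 79.3% and 100%, or 77.8% and 66.7% after thinning. It was 80.8% and 84.4% in KO Trgv6 Trdv4 cells and 70.5% and 75.6% in other KO cells. After thinning these were 59.3% and 64.25%, and 54.6% and 60.4%. The 4 genes therefore set Ccr6 Scart2 cells far less apart from other cells in KO than in WT.

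The population was not limited to cells with many UMIs of the selecting genes. The cells just inside the limit, with 1 UMI of each gene, numbered 25 in WT 1 and 19 in WT 2, and 72.0% and 84.2% of them had at least 3 of the 4 genes. Just outside it, 53 and 76 cells had Ccr6 without Scart2, and 69.8% and 67.1% of these had at least 3 of the 4. By contrast, 659 and 1340 cells had Scart2 without Ccr6, and the share was 15.5% and 8.43%. A further 9 and 16 cells with both genes were left out because a UMI of Trgv6 or Trdv4 was present. Most of the Scart2 cells without Ccr6 carried Ccr9, a gut-homing receptor, and 446 and 811 cells with Ccr9 and Scart2 UMIs but no Ccr6, Trgv6 or Trdv4 UMI served as a further reference, called Ccr9 Scart2 cells.

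Markers of other cell types were summed by list. Of the 8 αβ T cell markers, 1 was at 0 UMIs in the Ccr6 Scart2 cells of WT 1 and 3 in WT 2. Cd4 was at 0 in both, but the cells had been sorted as CD4neg, and Cd8b1 was at 26.8 and 22.8 CPM. Of the 10 B cell markers 6 and 5 were at 0, and of the 10 myeloid markers 5 and 7. Of the 8 NK and ILC markers 2 and 3 were at 0. Cd79a, Ms4a1, Pax5, Lyz2, S100a8 and S100a9 were at 0 in both WT libraries. The 8 αβ T cell markers summed to 1384 and 1542 CPM, of which 64.2% and 64.8% was Trbc2, against 1331 and 1349 CPM in Trgv6 Trdv4 cells, 2442 and 2458 in Ccr9 Scart2 cells and 1735 and 1771 in other cells. The 10 B cell markers summed to 202 and 187 CPM, led by Ighm, and the 10 myeloid markers to 114 and 119 CPM, almost all of it Cst3. The 8 NK and ILC markers summed to 184 and 215 CPM, of which 89.1% and 83.6% was Gata3, which T cells also express, against 216 and 232 CPM in other cells. At least 2 UMIs over a list of 10 genes of other cell types, which included Trac, Cd79b and Cst3, were in 31.8% and 28.9% of Ccr6 Scart2 cells and in 36.6% and 31.4% of other cells.

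**Figure D1:**
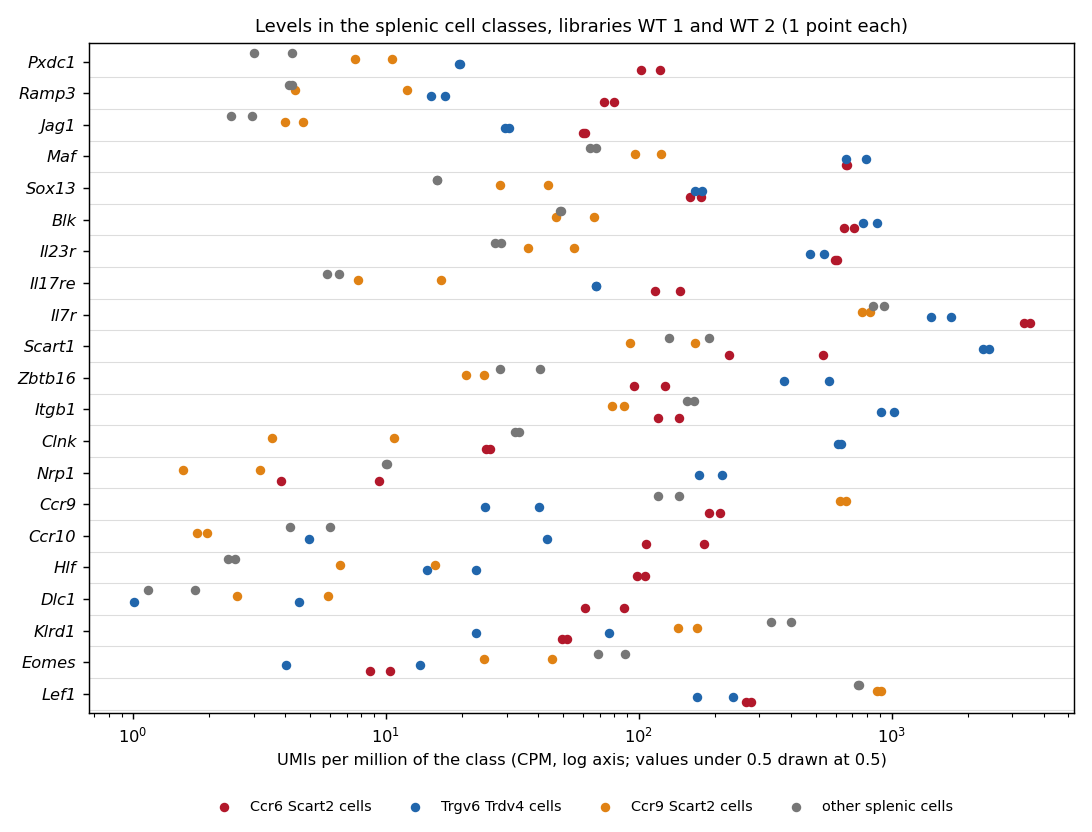
Levels of 21 genes in 4 classes of WT splenic cells, in CPM of the class on a log axis, with 1 point for WT 1 and 1 for WT 2 and no error bars. Ccr6 Scart2 cells lie with Trgv6 Trdv4 cells for Maf, Sox13 and Il23r, and near the other classes for Clnk, Nrp1 and Itgb1.

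The first comparison asked how Ccr6 Scart2 cells differ from the splenic γδ T cells around them, taking the WT libraries. Of the genes of γδT17 cells, 7 of 12 transcription factors and 7 of 11 cytokine receptors were higher than in the other cells, and 12 of 18 genes of cytotoxic and IFN-γ producing cells were lower. Of 12667 genes tested, 1866 (14.7%) passed an adjusted p of 0.05 in edgeR's quasi-likelihood test, 1028 higher (8.12%) and 838 lower (6.62%). Log2 differences below are given as Ccr6 Scart2 minus reference cells, with n = 2 libraries per class. Their SE was derived from the test, as the absolute log2 difference divided by the square root of its F statistic. The spread in the fit was estimated over all fitted classes, those of the KO libraries included. The median over all genes tested was −0.05.

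Of the 12 transcription factors of γδT17 cells, 1 was lower, though not with either WT library left out, and 4 were not called, with a median log2 difference of 1.62. Maf was at 662 and 666 CPM in WT 1 and WT 2 against 67.7 and 64.1 in the other cells, a log2 difference of 3.27 ± 0.13 (edgeR adjusted p = 7.02e-11). Blk, a Src family kinase of γδT17 cells, was at 650 and 710 CPM against 49.4 and 48.8. None of these libraries overlapped between classes. Sox13 rose by 3.34 ± 0.15, Rora by 2.24 ± 0.18 and Zbtb16, which encodes PLZF, by 1.64 ± 0.28 on the log2 scale. Sox4 was the member that was lower, at 25.9 and 38.4 CPM against 73.9 and 78.6.

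Of the 11 receptors for γδT17 cytokines, 2 were lower and 2 were not called, with a median of 2.15. Without WT 1, 1 receptor was lower, and without WT 2 none was. Il23r was at 599 and 611 CPM against 27.0 and 28.6, a log2 difference of 4.38 ± 0.15 (edgeR adjusted p = 3.15e-11). Il17re, a receptor subunit for IL-17C, was at 116 and 145 CPM against 5.83 and 6.53. Il7r, which carries the survival signal of IL-7, was the most abundant of them at 3328 and 3515 CPM against 845 and 930. Il1r1, Il2ra, Il18r1 and Il12rb1 were higher as well, with log2 differences from 2.15 to 3.32. Cytokine transcripts themselves were scarce. Il17a gave 1 UMI over the 411 WT cells. Il17f gave 0 UMIs in WT 1 and 4 in WT 2 and was called higher, and the call was lost with either WT library left out. Tnf was at 46.0 and 50.9 CPM against 14.3 and 15.7.

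Among 14 chemokine receptors, 5 were higher and 2 lower, and with either WT library left out 4 were higher and none lower. Ccr2, for inflammatory recruitment, was at 385 and 380 CPM against 49.2 and 43.4, and Cxcr6 at 464 and 548 against 137 and 147. Ccr10, a receptor associated with homing to skin, was at 106 and 181 CPM against 5.99 and 4.17, a log2 difference of 4.76 ± 0.66 (edgeR adjusted p = 0.00368). Both libraries lay above every reference library. Of 14 integrins, 5 were higher and 5 lower, and the counts were 3 and 2 without WT 1 and 4 and 2 without WT 2. Itgae, the αE chain that binds E-cadherin, was at 196 and 236 CPM against 34.9 and 37.3, and Itgb3 at 162 and 177 against 32.0 and 33.8.

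Of the 18 type 1 and cytotoxic genes, 12 were lower and 1 was higher, with a median of −2.56, and 7 were lower with either WT library left out. Ccl5, a chemokine of cytotoxic cells, was at 520 and 317 CPM against 2406 and 2587. Nkg7, a granule protein, was at 83.4 and 117 CPM against 609 and 650, and Eomes, a factor of cytotoxic programming, at 8.63 and 10.4 against 68.7 and 88.2. The exception was Klrk1, which encodes the activating receptor NKG2D, at 219 and 238 CPM against 130 and 137. Markers of other cell types moved in this comparison too. Of 7 NK and ILC markers 4 were lower and 1 higher, and of 6 αβ T cell markers 3 were lower and none higher. Of 5 myeloid markers 2 were lower and none higher, and of 7 B cell markers 1 was higher and none lower. Cd27 was at 95.9 and 139 CPM against 295 and 337, a log2 difference of −1.49 ± 0.37 (edgeR adjusted p = 0.036). Of 14 genes of circulation and quiescence, 8 were lower and 2 higher: Lef1 was at 266 and 277 CPM against 746 and 733, whereas Klf2 and S1pr4 were higher by 0.45 and 0.88. With either WT library left out, 3 were lower and 1 was higher. The call for Klf2 was lost when only cells between the quartiles of the depth of Ccr6 Scart2 cells were used in every class, below called matched depth (edgeR adjusted p = 0.0853). Among the genes named in this comparison, the calls for Cd27, Eomes, Nkg7, Samd3 and Klf2 were lost with either WT library left out, and that for Ly6c2 without WT 2.

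Of the 13 genes in a list of type 17 associated transcripts, 11 were higher and none lower. The list is named here for its S100, galectin and Tmem176 genes, but it also held Aqp3, an aquaporin gene. Tmem176b was at 330 and 370 CPM against 38.5 and 37.4, and S100a6 at 2205 and 1893 against 520 and 470. The 10 genes with the largest rise at 50 CPM or more were Dlc1, Fstl4, Hlf, Zfp462, Ccr10, Lingo4, Stom, Nav2, Pard3 and Il23r. Hlf, a transcription factor best known from blood stem cells, was at 105 and 98.7 CPM against 2.52 and 2.38, and Zfp462, a zinc finger gene, at 213 and 243 against 7.34 and 6.74. Those with the largest fall were Xcl1, Klrc2, Samd3, Eomes, Ctla2a, Crtam, Klrd1, Ly6c2, Hopx and Klre1, with log2 differences from −4.18 to −2.77.

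Of 13 TCR γ genes, 2 were higher, Trgv4 and Trgc1, and 2 lower. With either WT library left out none was lower, and without WT 2 the call for Trgv4 was lost, as was that for Trdc without WT 1. Trdc, the δ constant gene, was at 827 and 1071 CPM against 1322 and 1445 and so lower in both libraries, and Trgc1 was at 283 and 303.3 against 182 and 185. Trgv4 was at 42.2 and 50.9 CPM against 24.4 and 21.0, a log2 difference of 0.97 ± 0.18 (edgeR adjusted p = 0.00138). A single most abundant Trgv gene could be named in 140 cells of WT 1 and 145 of WT 2. It was Trgv2 in 80.7% and 82.1%, Trgv4 in 12.1% and 7.59% and Trgv1 in 5.71% and 8.97% of them. Trgv2 also led in 78.3% and 79.0% of Trgv6 Trdv4 cells with such a gene, where Trgv6 had been set aside, so this count does not give the rearranged receptor. The V genes resemble each other and 3′ reads could be divided between them, which makes these assignments uncertain.

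The second comparison set Ccr6 Scart2 cells against Trgv6 Trdv4 cells of the same WT libraries, that is, γδT17 cells of the fetal-derived receptor type, of which there were 275 and 290. Maf, Sox13 and Il23r were not called different, while 4 of 12 transcription factors of γδT17 cells, among them Zbtb16 and Rora, were lower. Ccr6 Scart2 cells had more Il7r, fewer transcripts of Scart1, Itgb1, Nrp1, Clnk and the S100 and galectin genes, and fewer cell cycle transcripts. Of 12667 genes, 1993 (15.7%) were called, 689 higher (5.44%) and 1304 lower (10.3%), around a median log2 difference of −0.03. At matched depth 427 of 10826 genes were called, 200 higher and 227 lower. That setting kept 67 and 73 of the Trgv6 Trdv4 cells of WT 1 and WT 2. Of the Ccr6 Scart2 cells it kept 106 and 99. Whether the loss of calls came from depth or from fewer cells was not tested. Fewer genes were also called without WT 1, which left 1 library per WT class.

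**Figure D2:**
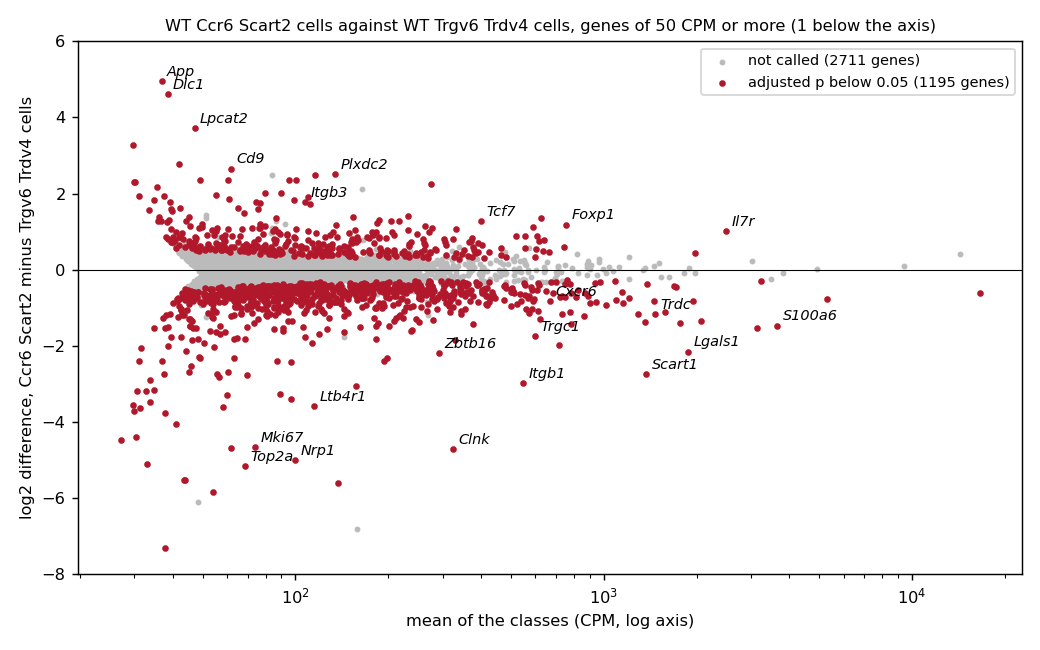
Log2 difference between WT Ccr6 Scart2 and WT Trgv6 Trdv4 cells (y axis) against the mean level of the classes in CPM (x axis, log), for 3906 genes of 50 CPM or more in either class, 1 point per gene, red where the adjusted p was below 0.05. Most abundant genes lie near 0, Il7r lies above, and Scart1, Itgb1, Clnk and Nrp1 lie below; 1 gene lies under the axis.

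Maf was at 662 and 666 CPM in WT 1 and WT 2 against 793 and 660 in Trgv6 Trdv4 cells, and Sox13 at 159 and 177 against 179 and 167. Of the 12 transcription factors, none was higher and 4 were lower, and at matched depth 1 of 11 was higher and 2 were lower. Without WT 1, 2 were lower. Zbtb16 was at 128 and 95.5 CPM against 568 and 376, a log2 difference of −2.19 ± 0.27 (edgeR adjusted p = 0.000654), and Rora was at 345 and 294 against 558 and 503. Blk was at 650 and 710 CPM against 872 and 772, and its call did not hold at matched depth. It was also lost with RLE size factors (edgeR adjusted p = 0.0722) and with only the libraries compared (edgeR adjusted p = 0.0931). Leaving out cells with UMIs of other cell types, or cells with cell cycle UMIs, ended it as well.

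Cytokine receptors went both ways, with 5 of 11 higher and 2 lower. At matched depth 2 of 10 were higher and 2 lower, and 2 were higher without WT 1 and 1 without WT 2. Il7r was at 3328 and 3515 CPM against 1429 and 1722, a log2 difference of 1.01 ± 0.09 (edgeR adjusted p = 2.74e-06). Il17re was at 116 and 145 CPM against 67.9 in both libraries, and its call was lost at matched depth. Il1r1, the signalling receptor for IL-1, was lower at 151 and 101 CPM against 365 and 339, a log2 difference of −1.59 ± 0.15. Il23r was at 599 and 611 against 475 and 539 (log2 difference 0.14, edgeR adjusted p = 0.534).

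Several genes of surface proteins were called in this comparison. Scart1, the scavenger receptor relative of Scart2, was at 228 and 536 CPM against 2298 and 2421, a log2 difference of −2.75 ± 0.43 (edgeR adjusted p = 0.00743), and with only the libraries compared its call was lost (edgeR adjusted p = 0.0703). It was detected in 24.3% of Ccr6 Scart2 cells of WT 1 and 45.7% of WT 2, against 99.6% and 99.0% of Trgv6 Trdv4 cells. Thinned to 3000 UMIs, the shares of Scart1 were 22.3% and 43.2% against 98.9% and 97.9%. Of 14 integrins, 2 were higher and 6 lower. At matched depth 2 of 13 were higher and 2 lower, and the lower ones numbered 1 without WT 1 and 2 without WT 2. Itgb1, the β1 chain, was at 144 and 119 CPM against 905 and 1025, a log2 difference of −2.98 ± 0.11 (edgeR adjusted p = 2.61e-10), whereas Itgb3 was at 162 and 177 against 50.8 and 40.7 and Itgae at 196 and 236 against 107 and 85.1. Of 14 chemokine receptors, 3 were higher and 2 lower, and both counts changed with either WT library left out. Ccr9 was at 190 and 209 CPM against 24.7 and 40.3, while Ccr2 and Cxcr6 were lower by 0.91 and 0.83. Without WT 1 no chemokine receptor was called lower, so the calls for Ccr2 and Cxcr6 were lost. Ltb4r1, a receptor for leukotriene B4, was at 20.1 and 17.7 CPM against 235 and 186.

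Of 14 genes of circulation and quiescence, 6 were higher and none lower than in Trgv6 Trdv4 cells. Tcf7, the factor TCF1 of naive and memory T cells, was at 536 and 623 CPM against 184 and 260, a log2 difference of 1.28 ± 0.19 (edgeR adjusted p = 0.000827). Foxp1, a quiescence factor, was at 1123 and 1015 CPM against 379 and 495, and Klf3 and Satb1 were higher by 1.29 and 1.14. At matched depth 6 of the 14 were higher and none lower, and 3 were higher without WT 1 and 4 without WT 2. Of the 13 S100, galectin and Tmem176 genes, 12 were lower with a median of −1.38. Lgals1, which encodes galectin-1, was at 779 and 696 CPM against 3564 and 2475, and S100a6 was at 2205 and 1893 against 6086 and 4428. At matched depth 6 of the 13 were lower and the median was −0.64, and 8 were lower without WT 1.

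Transcripts of dividing cells were lower in Ccr6 Scart2 than in Trgv6 Trdv4 cells. A UMI of Mki67, Top2a, Ccna2, Ccnb1 or Cdk1 was found in 3.74% and 7.61% of Ccr6 Scart2 cells of WT 1 and WT 2 and in 29.5% and 26.6% of Trgv6 Trdv4 cells, but also in only 5.38% and 5.18% of Ccr9 Scart2 cells and 7.12% and 4.97% of other cells. Against Ccr9 Scart2 cells 1 of 10 cell cycle genes was higher and 1 lower, and against other cells 1 was lower. Mki67, which encodes Ki-67, was at 2.88 and 9.35 CPM against 112 and 172 in Trgv6 Trdv4 cells. Top2a, a topoisomerase of replicating cells, was at 1.92 and 6.23 CPM against 94.6 and 172, and Ube2c, of the anaphase machinery, at 0 UMIs against 62.4 and 120 CPM. Of 10 cell cycle genes, 7 were lower, and 4 with either WT library left out. At matched depth 1 of 8 was lower and 1 higher, and the calls for Mki67, Top2a, Cdk1 and Stmn1 were lost. With all cells holding a UMI of Mki67, Top2a, Ccna2, Ccnb1 or Cdk1 left out, a choice made after seeing the data, 1318 genes were called, 502 higher and 816 lower.

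The 10 genes most above Trgv6 Trdv4 cells at 50 CPM or more were App, Dlc1, Lpcat2, Tlr1, Rflnb, Cd9, Plxdc2, Ccr9, Hlf and Fam169b. App, the amyloid precursor protein gene, was at 63.3 and 79.97 CPM against 0 and 4.07, and Cd9, a tetraspanin, at 110 and 106 against 11.1 and 20.4. The 10 most below were Ube2c, Bcl2a1a, Pclaf, 1500009L16Rik, Tmem163, H2ac8, Top2a, Birc5, Nrp1 and Clnk. Nrp1, the semaphorin and VEGF co-receptor neuropilin-1, was at 3.83 and 9.35 CPM against 213 and 173, a log2 difference of −5.01 ± 0.26 (edgeR adjusted p = 2.16e-08). Clnk, an adaptor of the SLP-76 family, was at 25.9 and 24.9 CPM against 632 and 611, a log2 difference of −4.72 ± 0.22 (edgeR adjusted p = 4.57e-08). No library of one class overlapped the other for these genes. At matched depth the calls for Pclaf, H2ac8, Top2a and Birc5 were lost, and with the pool number as a block in the fit those for Ube2c and Birc5. Calls lost with either WT library left out included those for Tcf7, Ube2c, Pclaf, Birc5 and Fam169b. Without WT 1 the lost calls also included Blk, Klf3, Dtx1, Rbpj, Ccr2 and Cxcr6, and without WT 2 they included Il17re.

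Most TCR genes were not called against Trgv6 Trdv4 cells. Both classes were set by UMIs of Trgv6 and Trdv4, so levels of other TCR genes are tied to that choice. The TCR calls below are therefore not independent of the selection, and how far they follow from it was not tested. Of 13 TCR γ genes, 1 was higher and 2 lower, and of 12 TCR δ genes 1 was higher and 1 lower. Without WT 2 the call for Trgv4 was lost, and without WT 1 that for Trdv5 was. Trdc was lower at 827 and 1071 CPM against 1860 and 2108, and Trgc1 at 283 and 303.3 against 1033 and 781. Trgv4 was at 42.2 and 50.9 CPM against 15.6 and 13.6, a log2 difference of 1.56 ± 0.23 (edgeR adjusted p = 0.000269). Trdv5 was at 14.4 and 18.7 CPM against 0 and 2.26, a call that was lost at matched depth. Of the Notch pathway, 3 of 12 genes were higher and 1 was lower: Dtx1, a regulator induced by Notch signalling, was at 318 and 243 CPM against 131 and 145 and Rbpj, the DNA-binding partner of Notch, at 51.8 and 67.5 against 113 and 110. None of the Notch genes was called at matched depth.

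The third comparison, with WT Ccr9 Scart2 cells, asked what separates cells that share Scart2 but not Ccr6. Scart2 stood at 437 and 383 CPM in those cells, yet at least 3 of the 4 γδT17 genes were found in 12.3% and 6.91% of them, and in 9.16% and 4.95% after thinning. Of 12666 genes, 1937 (15.3%) were called, 1109 higher (8.76%) and 828 lower (6.54%), around a median of −0.01. Of 12 transcription factors of γδT17 cells, 7 were higher and 3 lower in Ccr6 Scart2 cells, and of 11 cytokine receptors 7 were higher and 2 lower. With either WT library left out no factor was lower, and of the receptors none was lower without WT 1 and 1 without WT 2. Of 13 S100, galectin and Tmem176 genes, 12 were higher and none lower. Maf was at 662 and 666 CPM against 122 and 96.6, and Cd44, a receptor of activated and memory T cells, was at 215 and 184 against 17.3 and 24.4.

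Of 13 genes of circulation and quiescence, 8 were lower than in Ccr9 Scart2 cells and 2 higher, and 4 were lower with either WT library left out. Id3, a gene of this list and an inhibitor of E proteins, was at 69.0 and 91.4 CPM against 335 and 386, a call lost with either WT library left out. Themis, Cd8b1 and Igfbp4 were among the 10 largest falls at 50 CPM or more. Themis, a T cell receptor signalling protein of developing T cells, was at 225 and 230 CPM against 1952 and 1982, a log2 difference of −3.05 ± 0.48 (edgeR adjusted p = 0.00654). Cd8b1, the CD8β chain, was at 26.8 and 22.8 CPM against 204 and 237, and Igfbp4 at 4.79 and 7.27 against 65.9 and 50.1. The αβ T cell markers moved with this comparison, with 3 of 6 lower and none higher. Without cells holding at least 2 UMIs of the list of other cell types, 1623 genes were called. With Trac, Cd79b and Cst3 off that list, a choice made after seeing the data, 1818 were called. Beyond these runs the part of the αβ T cell markers was not tested. The libraries of the classes did not overlap for Id3, Themis, Cd8b1 or Igfbp4. Abi3bp, an extracellular matrix binding protein, was among the 10 largest rises, at 441 and 400 CPM against 19.6 and 20.1, as were Fstl4, Ccr10, Pard3, Kcnk1, Ttc39c, Dlc1, Stom, Nebl and Scpep1. The call for Pard3 was lost without WT 2.

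Within the WT Ccr6 Scart2 cells, those with and without a Scart1 UMI had similar levels of the γδT17 genes. Maf was at 680 and 644 CPM in cells of WT 1 and WT 2 with Scart1 and at 654 and 686 in those without, and Il23r at 571 and 566 against 610 and 652. Scart2 was at 540 and 506 CPM with Scart1 and at 759 and 848 without it, and Il7r at 2879 and 3305 against 3504 and 3708. These subsets share their libraries, and the differences were not tested.

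The next question was how the population stood in the libraries labelled KO. Ccr6 Scart2 cells made up 2.73% of splenic cells in WT 1 (95% Clopper-Pearson interval 2.38 to 3.12%) and 1.76% in WT 2 (1.53 to 2.03%), against 0.371% in KO 1 (0.249 to 0.532%) and 0.0771% in KO 2 (0.0352 to 0.146%). The intervals, which cover counting error only, did not overlap between genotypes. The mean was 2.25% ± 0.684 (SD, n = 2) in WT and 0.224% ± 0.208 in KO, a difference of −2.02 percentage points (two-sided exact permutation p = 0.33, the smallest that 2 against 2 libraries allow).

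The sort fixes the total, and in the KO libraries most cells held at least 1 Trgv6 or Trdv4 UMI: 7211 of 7818 cells in KO 1 and 10842 of 11679 in KO 2, against 720 and 1079 in WT 1 and WT 2. At least 3 such UMIs were in 5244 and 7824 cells of KO 1 and KO 2 and in 339 and 365 of WT 1 and WT 2. Among cells with neither V gene, Ccr6 Scart2 cells were 3.01% in WT 1 (2.62 to 3.43%), 1.95% in WT 2 (1.69 to 2.24%), 4.78% in KO 1 (3.22 to 6.79%) and 1.08% in KO 2 (0.493 to 2.03%). On this denominator the mean was 2.48% ± 0.746 in WT and 2.93% ± 2.62 in KO, so the difference turned to 0.446 points (exact permutation p = 1) and the KO libraries lay on either side of both WT libraries. The lower share in KO thus held against all sorted cells and not against the cells without a UMI of Trgv6 or Trdv4. The cells of this denominator were unlike between the genotypes: of those with neither Ccr6 nor Scart2, at least 3 of Maf, Sox13, Blk and Il23r were detected in 51.3% and 60.0% in KO 1 and KO 2, against 0.937% and 0.602% in WT 1 and WT 2. Absolute cell numbers were not analysed here.

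The selection requires 0 UMIs of both V genes, so a stray UMI of either removes a cell from it. Cells with Ccr6 and Scart2, whatever their V gene UMIs, were 2.85% and 1.91% of WT 1 and WT 2 and 0.409% and 0.137% of KO 1 and KO 2, a choice made after seeing the data. The V genes removed 9 and 16 such cells in WT and 3 and 7 in KO. Of WT cells with at least 2 UMIs of Cd8b1 and none of Trdc, 2 of 199 in WT 1 (1.01%, Clopper-Pearson interval 0.122 to 3.58%) and 0 of 47 in WT 2 (0 to 7.55%) had a Trgv6 or Trdv4 UMI, at a median of 6650 and 5830 UMIs. The KO libraries held 0 and 2 such cells, too few for a background share.

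**Figure D3:**
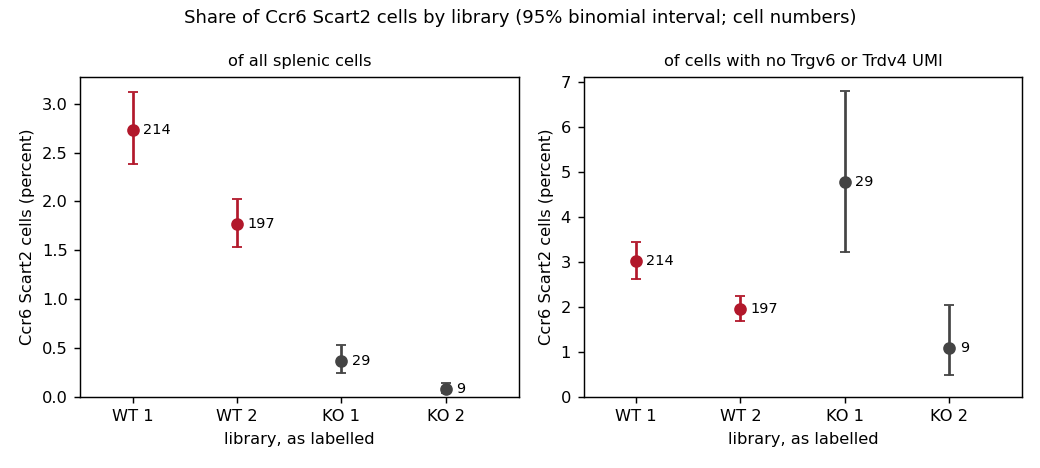
Share of Ccr6 Scart2 cells in percent for each splenic library, of all cells (left) and of cells without a Trgv6 or Trdv4 UMI (right), with 95% Clopper-Pearson intervals and the number of Ccr6 Scart2 cells beside each point. On the left both KO libraries lie below both WT libraries, and on the right KO 1 lies above and KO 2 below them.

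The 38 Ccr6 Scart2 cells of the KO libraries were set beside the Trgv6 Trdv4 cells of the same libraries. KO Trgv6 Trdv4 cells numbered 4455 and 6765. Of 2048 genes of 100 CPM or more, 461 (22.5%) were higher and 727 (35.5%) lower in both KO libraries of Ccr6 Scart2 cells than in both KO libraries of Trgv6 Trdv4 cells. Among the 230 genes called higher in WT that could be compared, 167 (72.6%) were higher and 9 lower. Among the 572 called lower in WT, 411 (71.9%) were lower and 21 higher. Of all 2048 genes, the libraries overlapped for 860 (42.0%), and 1246 had not been called in WT. Both classes come from the same KO matrices, which share their droplet pools with the WT matrices, and no test was made, since KO 2 held 9 cells.

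Pxdc1, a marker given with the population, was at 223 CPM in KO 1 and 83.6 in KO 2, from 34 and 4 UMIs, against 1.48 and 1.20 CPM in KO Trgv6 Trdv4 cells. Il23r was at 597 and 732 CPM against 192 and 219, and Il7r at 2963 and 2801 against 574 and 615. Dlc1 was at 78.7 and 125 CPM against 0.207 and 0.135. On the lower side, Clnk was at 13.1 and 83.6 CPM against 1236 and 1295, Itgb1 at 65.6 and 251 against 950 and 1009 and Zbtb16 at 45.9 and 105 against 562 and 553. For each of these genes both KO libraries of one class lay apart from both of the other. Il23r, however, had not been called different between the classes in WT. Levels of Il23r, Il7r and Pxdc1 in Trgv6 Trdv4 cells were lower in both KO than in both WT libraries, so the reference differed between the genotypes. That difference was not tested. At least 1 of Pxdc1, Ramp3 and Jag1 was detected in 72.4% and 55.6% of KO Ccr6 Scart2 cells and in 3.84% and 4.32% of KO Trgv6 Trdv4 cells, and after thinning in 70.4% and 33.3% against 1.98% and 2.28%.

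**Figure D4:**
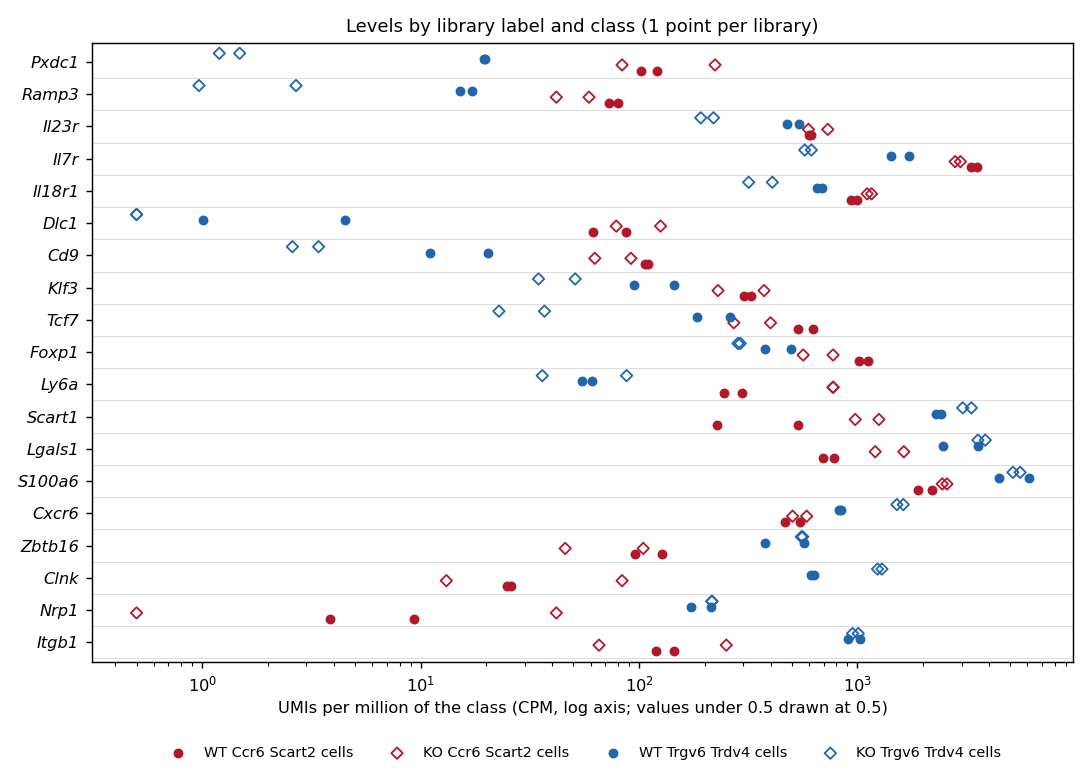
Levels of 19 genes in Ccr6 Scart2 cells (red) and Trgv6 Trdv4 cells (blue) of the WT (filled) and KO (open) splenic libraries, in CPM of the class on a log axis, with 1 point per library and no error bars. KO Ccr6 Scart2 cells, 29 and 9 in number, lie nearer to WT Ccr6 Scart2 cells than to KO Trgv6 Trdv4 cells for Il7r, Il23r and Clnk, and above them for Ly6a, Scart1 and Lgals1.

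Against WT Ccr6 Scart2 cells, 393 (21.6%) of 1819 genes of 100 CPM or more were higher and 392 (21.6%) lower in both KO than in both WT libraries. With 2 libraries a group, 9 cells in KO 2 and no test, nothing is read from these shares, and they stand as the background for the genes that follow. Scart1 was at 977 and 1254 CPM in KO 1 and KO 2 against 228 and 536 in WT 1 and WT 2, and was detected in 69.0% and 77.8% of the KO cells, or 63.0% and 77.8% after thinning. Ly6a, which encodes Sca-1, was at 774 and 773 CPM, from 118 and 37 UMIs, against 244 and 297. Maf was at 839 and 732 CPM against 662 and 666. Each of these KO values lay above both WT values. Of 6 receptors for γδT17 cytokines at this level, Il18r1 and Il2ra were higher and Il7r was lower in both KO libraries, Il7r at 2963 and 2801 CPM against 3328 and 3515.

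Of 11 genes of the S100, galectin and Tmem176 list at this level, 6, Aqp3 among them, were higher in both KO libraries and none lower. Lgals1 was at 1206 and 1631 CPM against 779 and 696. Of 9 genes of circulation and quiescence, Bach2, Foxp1, Tcf7 and Satb1 were lower and Ccr9 was higher. Tcf7 was at 400 and 272 CPM against 536 and 623 and Foxp1 at 774 and 564 against 1123 and 1015. Ccr9 was at 505 and 209 CPM against 190 and 209, so KO 2 was level with WT 2.

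The cytokine transcripts of the KO cells came from few molecules. Il17f gave 16 UMIs in KO 1 and 1 in KO 2, at 105 and 20.9 CPM, against 0 and 4 UMIs in WT 1 and WT 2. Il17a gave 0 UMIs in the KO Ccr6 Scart2 cells against 28.2 and 46.9 CPM in KO Trgv6 Trdv4 cells, and a count of 0 allows up to 19.7 CPM in the 29 cells of KO 1 and 62.7 CPM in the 9 cells of KO 2. Some genes were chosen after their values were seen. Themis was at 45.9 and 20.9 CPM against 225 and 230 in WT Ccr6 Scart2 cells and Aff3 at 45.9 and 0 against 218 in both. Ccl5 was at 13.1 and 83.6 CPM against 520 and 317. None of these differences was tested.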

How the data were processed

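Per the labels, WT and KO cells, either sorted γδ T cells or thymic DN1–DN3 cells, were pooled in pairs and sequenced with a 10x Genomics 3′ kit. The deposited matrices hold UMI counts per gene and cell, made by the authors with Cell Ranger 8.0.1 on GRCm39 (from the submitters' processing notes; the annotation version is not given in the sources used here) and demultiplexed with hashsolo. The genotype of a matrix is that in its name, and the labels give the hashtag of each genotype, which led in 99.6 to 100% of the cells of each matrix. The labels' match of hashtag to genotype has no check of its own here. No normalization was applied to the counts by the authors before deposit. No doublet caller was run beyond that demultiplexing, and 1 of the 449 cells held more than 3 times the median UMIs of all cells of its library.

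The 4 splenic libraries gave 38495 cells with at least 500 UMIs. The members and gene lists were chosen with earlier results of these data known. UMI counts were summed per library and class, Ccr9 Scart2 cells being those with Ccr9 and Scart2 but no Ccr6, Trgv6 or Trdv4 UMI. Classes with at least 20 cells in both libraries entered 1 fit in edgeR 4.0.16 (R 4.3.3), with TMM factors, filterByExpr and the quasi-likelihood test, p-values being adjusted by Benjamini and Hochberg over all genes tested. Of 33696 genes in the files, 9547 ribosomal, mitochondrial and Gm-named genes were left out, after the study's methods. Selecting and given marker genes were not tested. KO Ccr6 Scart2 cells (29 and 9) were too few for the planned fits with them, and both KO libraries are given beside both WT libraries instead. Named genes are the members of the lists and the 10 called genes with the largest rise and fall at 50 CPM or more whose libraries did not overlap; some are not reported here. The script was tested on simulated data: 96 to 97% of 100 genes changed by a log2 of 2 and 51 to 59% of 100 changed by 1 were recovered. In each comparison 6 to 8 unchanged genes were called. The simulation used a fixed spread and the same mean profile in all classes. Only genes above a minimum expected count were changed, so it does not give the recovery for genes of few UMIs. Alternatives used DESeq2 1.42.0 and limma 3.58.1 was loaded by edgeR. Shares used Clopper-Pearson intervals and an exact permutation test (scipy 1.17.1, Python 3.11.15). Thinning drew 3000 UMIs per cell without replacement.

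WT and KO libraries of 1 number share a droplet pool, and classes of 1 library share its run. Deviations of same-numbered sums from the class means correlated with r from −0.0128 to 0.419.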

Additional observations from a re-analysis of the deposited data

Results flagged for a closer look

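The share of cells that met the same selection moved in opposite directions in the compartments: KO minus WT was −2.024 percentage points in splenic γδ T cells and 5.569 points in sorted thymic DN1–DN3 cells, where both KO libraries lay above both WT libraries. The difference between the compartments was not tested.

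In DN1–DN3 cells, which enter no comparison above, the selection was met by 8.42% of cells in KO 1 (592 of 7031) and 2.948% in KO 2 (226 of 7666), against 11 of 7279 and 6 of 7618 cells in WT 1 and WT 2. These KO cells had Il23r at 657 and 478 CPM, Blk at 598 and 507 and Pxdc1 at 193 and 185, against 599 and 611, 650 and 710, and 121 and 102 in splenic WT Ccr6 Scart2 cells. Ramp3 at 14.2 and 13.4 CPM, Jag1 at 16.7 and 12.6, Sox13 at 6.56 and 11.1 and Trdc at 19.7 and 49.8 all lay below the values of both splenic WT libraries.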

How the results depend on the processing

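The comparisons were recomputed with RLE size factors, DESeq2, no filter on low counts, only the libraries compared, the study's cell filters, a selection on 3 UMIs of Ccr6 and Scart2 in sum, and a reference with neither gene, and the counts of called genes stayed within 1.5 times of 1866 (other cells), 1993 (Trgv6 Trdv4 cells) and 1937 (Ccr9 Scart2 cells). With the pool number as a replicate block, 2161, 2247 and 2194 genes were called, and of the single genes named as called, Birc5 and Ube2c against Trgv6 Trdv4 cells then missed the threshold (edgeR adjusted p = 0.0519 and 0.0659) and the block changed no other call. In the lists, the block moved counts by at most 2 genes: against Trgv6 Trdv4 cells, type 17 cytokines went from 0 to 2 lower, transcription factors from 0 to 1 higher and cytokine receptors from 5 to 4 higher. Against Trgv6 Trdv4 cells, 427 genes were called at matched depth, which kept 67 and 73 of 275 and 290 WT Trgv6 Trdv4 cells. The count was 437 without cells holding 2 or more UMIs of a list of other cell types. It was 1318 without cells of 5 cell cycle genes. The list of other cell types included Cst3, Cd79b and Trac, and it removed most WT Trgv6 Trdv4 cells; with those 3 genes off the list 1978 were called. The cell cycle setting and the shortened list were chosen after seeing the data. The cause of these changes was not tested.

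Leaving out each library in turn gave 734 to 1823 called genes against other cells, 288 to 1879 against Trgv6 Trdv4 cells and 716 to 1902 against Ccr9 Scart2 cells. The lower counts came without a WT library, which leaves 1 library per WT class, assumed to vary like the others. Of the single genes named, 3 turned direction. Il17f against other cells ran from −3.79 without WT 2 to 5.26 on the log2 scale. At matched depth, Birc5 was at 0.54 and Blk at 0.063 against Trgv6 Trdv4 cells. Apart from left-out libraries, 68 of 776 repeats of single genes against Trgv6 Trdv4 cells lost their call in the same direction. So did 1 of 862 against other cells and 0 of 528 against Ccr9 Scart2 cells. Scart1 lost its call against Trgv6 Trdv4 cells with only the libraries compared (edgeR adjusted p = 0.0703). The losses were uneven over the settings. Against Trgv6 Trdv4 cells, 45 of 70 single genes kept their result at matched depth, and 48 of 71 without cells of other cell types. Without WT 1 or WT 2, a larger part of the calls against Trgv6 Trdv4 cells was lost than over the 776 repeats.

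The share of Ccr6 Scart2 cells, KO minus WT, turned to 0.4455 points among cells without Trgv6 and Trdv4 and was otherwise −2.104 to −1.455 points, and −2.508 to −1.54 with 1 library left out. The planned fits with KO Ccr6 Scart2 cells, and their alternatives, were not run for lack of cells. At the depth of 9 cells in KO 2, 1 UMI was worth 20.9 CPM, so differences under that size were not detectable there.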

Other observations

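In sorted thymic γδ T cells the same selection was met by 84 cells (1.23%) of WT 1 and 162 (2.02%) of WT 2, against 14 (0.206%) and 7 (0.0916%) of KO 1 and KO 2. The thymic WT cells had Pxdc1 at 133 and 127 CPM and Ramp3 at 35.6 and 28.1 CPM, with Ccr9 at 704 and 337 CPM. In the spleen, the Ccr9 at 190 and 209 CPM of WT Ccr6 Scart2 cells was lower, and Ramp3 at 72.9 and 79.97 CPM was higher, in both libraries. The tissues were sorted and loaded separately, and the difference was not tested.

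Of the KO libraries, the other splenic cells, without a Trgv6 and Trdv4 pair, held at least 3 of Maf, Sox13, Blk and Il23r in 70.5% and 75.6%, against 4.61% and 3.87% in WT. The cells around the Ccr6 Scart2 cells thus differed between the genotypes as labelled, and no comparison with other splenic cells was made in KO.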
